A study of Mus musculus with 14 samples.

Results

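The alpha and beta tubulin isotypes described here are 10 genes. They comprise 6 alpha tubulins (Tuba1a, Tuba1b, Tuba3a, Tuba3b, Tuba4a and Tuba8) and 4 beta tubulins (Tubb2a, Tubb3, Tubb4b and Tubb5). Their rows were taken by gene symbol from the count tables of spermatogonia (Spg) and spermatocytes (Spc), which hold 32667 and 36888 genes, of which 31111 are in both. All 10 were found in both tables and all 10 passed the filter on low counts in every comparison.

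Microtubules are hollow polymers of alpha and beta tubulin heterodimers. Mammals carry several genes for each subunit, whose products, called isotypes, differ mainly in an acidic tail at the carboxyl end that lies on the microtubule surface and is the substrate of enzymes adding or removing tyrosine, glutamate and glycine. In the testis, microtubules form the meiotic spindle, the manchette that shapes the sperm head and the axoneme of the flagellum, and in the somatic Sertoli cells they run along the length of the cell as a scaffold for the attached germ cells. Tuba3a and Tuba3b are known as the testis-enriched alpha isotypes, Tuba1a, Tuba1b and Tubb5 as isotypes of dividing and developing cells, Tubb4b as a beta isotype of cilia and flagella, and Tubb3 as the classical neuronal beta isotype, which Sertoli cells also make.

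The libraries were made from polyadenylated RNA of sorted male germ cells of Dnmt3CKO/KO (KO) mice and wild-type (WT) littermates on a C57Bl6/J background. DNMT3C is a DNA methyltransferase of male germ cells that methylates young retrotransposons. Spg came from mice at postnatal day 14 and were sorted as viable cells with Ep-CAM and without beta-2-microglobulin at the surface, with 3 KO and 3 WT libraries. Spc came from mice older than 20 days and were sorted by Hoechst DNA staining and exclusion of propidium iodide, with 4 KO and 4 WT libraries. The labels name no treatment. KO germ cells arrest at the pachytene stage of meiosis, whereas the WT Spc gate also holds later stages, so that genotype and stage composition cannot be told apart in the Spc comparison.

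Each library held between 40.6 and 53.3 times 1000000 counts. Levels are CPM (counts per 1000000, scaled with TMM factors over the 14 libraries). The Dnmt3c gene had 58 to 116 counts in KO and 53 to 89 in WT Spg, and 52 to 57 in KO and 11 to 28 in WT Spc. It was thus not lower in KO, and since the deleted part of the gene is not given in the sources used here, its counts do not check the genotype labels. KO and WT stand for the libraries labelled so. The summed level of 8 pachytene markers was 9107 to 16438 CPM in WT Spc, 250.2 to 517 CPM in KO Spc and 165 to 1608 CPM in Spg. Markers of cells that the gates should remove were not at 0. Summed over 8 Sertoli genes, they reached 1481 and 1147 CPM in replicate 1 of KO and WT Spg, against 318 to 627 CPM in the other Spg libraries. Replicates 1 and 4 of Spc were much closer to each other than other pairs in both genotypes (chi-square per degree of freedom 12.1 in KO and 15.7 in WT, against 139 to 308). They still differed beyond sampling noise and were counted as separate samples, which does not show that they came from different animals. The paper describes its Spc RNA data as biological triplicates. Fits that leave out replicate 1 or 4 keep its close partner.

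The tail of the protein is where the isotypes differ most, so the last 48 coding bases before the stop codon are printed for 8 of the genes from the GENCODE M21 transcripts on GRCm38, with the last codon in capitals.
Tuba3a and Tuba3b: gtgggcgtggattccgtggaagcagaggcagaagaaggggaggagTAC
Tuba4a: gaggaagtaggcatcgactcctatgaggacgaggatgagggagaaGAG
Tuba8: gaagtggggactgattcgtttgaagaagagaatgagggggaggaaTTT
Tubb2a: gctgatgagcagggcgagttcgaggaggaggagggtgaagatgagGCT
Tubb3: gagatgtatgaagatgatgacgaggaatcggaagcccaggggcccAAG
Tubb4b: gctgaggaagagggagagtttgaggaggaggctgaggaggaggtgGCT
Tubb5: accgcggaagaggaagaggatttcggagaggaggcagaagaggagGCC

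Tuba3a and Tuba3b end in TAC, a tyrosine codon, whereas Tuba4a ends in a glutamate codon and Tuba8 in a phenylalanine codon. Tuba3a and Tuba3b were identical over these 48 bases and 97.0% identical over the whole coding sequence. Over the coding sequence, identity ran from 79.1% to 98.3% among the alpha pairs and from 81.5% to 84.6% among the beta pairs, and alpha and beta genes shared 54.7% to 58.4%.

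On GRCm38 the genes lie apart from each other except for Tuba1a (chr15:98949837-98953703, minus strand) and Tuba1b (chr15:98931425-98934565, minus strand). Tuba3a (chr6:125278274-125286042, minus strand), Tuba3b (chr6:145615757-145621479, plus strand) and Tuba8 (chr6:121210696-121226854, plus strand) share chromosome 6. Tuba4a is at chr1:75214228-75219865 on the minus strand. Of the beta genes, Tubb2a is at chr13:34074274-34078007 (minus strand), Tubb3 at chr8:123411424-123422015 (plus strand), Tubb4b at chr2:25222160-25224702 (minus strand) and Tubb5 at chr17:35833921-35838306 (minus strand). The counts cover all 4 or 5 exons of a gene, untranslated parts included.

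Sequence similarity bears on how far the counts can be assigned. Of all 108-base windows of the transcript, the length of 1 read, 64.4% in Tuba1a and 68.4% in Tuba1b also occurred in another gene on the same strand, mostly in the alpha isotype Tuba1c. This share was 35.0% for Tubb2a (mostly Tubb2b), 26.6% for Tubb4b (mostly the pseudogene Tubb4b-ps1), 10.7% for Tuba3a and 9.95% for Tuba3b. No window was shared for Tuba4a, Tuba8, Tubb3 or Tubb5. Values of Tuba1a, Tuba1b, Tubb2a and Tubb4b are therefore uncertain as to which copy the reads came from, and those of the Tuba3a and Tuba3b pair less so.

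The 3 isotypes with the highest levels per length, Tuba3a, Tuba3b and Tubb4b, each hold more than 1 CCAAT box (the letters CCAAT on the gene's strand) within 250 bases before the RefSeq start, as does Tubb5. The share of promoters with more than 1 box was not computed, so no link with level can be read from this. The 250 bases before the RefSeq start of Tuba3a and Tubb4b (GRCm38.p6, minus strand for both) are shown with the CCAAT boxes in capitals.
Tuba3a, chr6:125286082-125286331: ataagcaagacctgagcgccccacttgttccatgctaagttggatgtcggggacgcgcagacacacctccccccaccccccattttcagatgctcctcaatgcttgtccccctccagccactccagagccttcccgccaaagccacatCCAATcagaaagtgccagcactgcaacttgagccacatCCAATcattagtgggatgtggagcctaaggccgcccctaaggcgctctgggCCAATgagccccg
Tubb4b, chr2:25224703-25224952: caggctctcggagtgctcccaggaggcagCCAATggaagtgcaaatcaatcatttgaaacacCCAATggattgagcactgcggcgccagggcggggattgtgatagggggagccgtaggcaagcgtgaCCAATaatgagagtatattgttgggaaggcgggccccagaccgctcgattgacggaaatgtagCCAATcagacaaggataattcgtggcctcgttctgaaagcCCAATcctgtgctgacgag

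The boxes started 102, 64 and 13 bases before the start in Tuba3a, and 221, 188, 122, 59 and 19 bases before it in Tubb4b. Tuba3b (plus strand) had boxes 89 and 51 bases before its RefSeq start. This start is 206 bases downstream of the GENCODE one, so only the surroundings of its boxes are shown beside those of Tuba3a.
Tuba3a, 102 before: aaagccacatCCAATcagaaagtgc
Tuba3b, 89 before: aaatttacatCCAATcagaaagtac
Tuba3a, 64 before: tgagccacatCCAATcattagtggg
Tuba3b, 51 before: tgagccacatCCAATcgcaaaaagg

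The first pair of windows had the same base at 21 of 25 positions and the second at 19 of 25. In windows from 250 bases before to 50 after the start, searched on both strands, 6 of the 10 isotype genes held a CCAAT box, against 37.4% of the 32851 RefSeq windows. For Tuba1a, Tuba3b and Tubb3 the GENCODE start lies 202, 206 and 129 bases upstream of the RefSeq one. By that start, the boxes of these genes fall inside the transcribed part. The letters TATAAA were found 29 bases before the start in Tubb2a and after the start in Tubb4b, against 13.6% of windows, and a cAMP response element (TGACGTCA) in Tubb2a, against 1.79%. The letters GCATGCGC, part of the motif of NRF1, a transcription factor that the study examined, were found in Tuba3b, against 2.71%. These matches describe the letters of the windows and were not tested for use.

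Levels of different genes were compared per kb of exon, taken as the union of all exons of a gene. That union is 2088 bases for Tubb4b against 1598 for its longest transcript, and both lengths are equal for Tuba3a and Tuba3b. With the shorter length Tubb4b would stand higher against these genes, and the alpha over beta ratios would be lower. The order and the ratios given below were not computed that way. In WT Spg, Tuba3a (mean 575 CPM per kb), Tubb4b (496) and Tuba3b (365) stood highest, and the ranges of neighbours in this order overlapped. They were followed, without overlap, by Tubb5 (68.2), Tuba1b (39.4), Tuba1a (34.1) and Tubb3 (22.5), whose ranges overlapped in turn. Tubb2a (4.34) and Tuba4a (4.32) came next, and Tuba8 (0.284) was last, each step without overlap. KO Spg had the same order with the same gaps, from Tuba3a at 564 to Tuba8 at 0.139 CPM per kb. In WT Spc the top was further from the rest. Tuba3a had 2747 and Tuba3b 2699.5 CPM per kb with overlapping ranges, Tubb4b had 999, and the next gene, Tuba1b, had 14.6. Below it, down to Tubb2a at 1.01 CPM per kb, all neighbours overlapped. In KO Spc the ranges of neighbours overlapped from Tubb4b (327) and Tuba3a (289.98) down to Tubb2a (8.49), and only Tuba4a (3.19) and Tuba8 (0.092) stood apart.

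**Figure D1:**
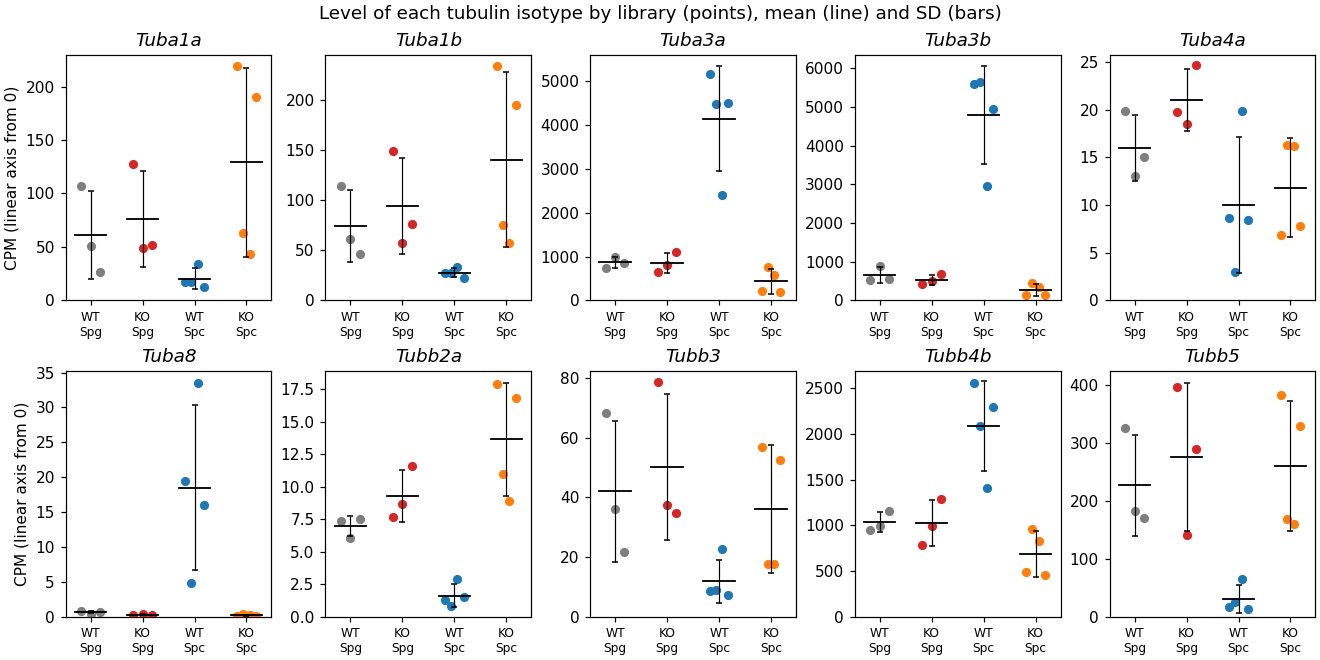
Level of each of the 10 tubulin isotypes in CPM (linear axes from 0), 1 point per library, with the mean (line) and SD (bars) of WT and KO Spg and Spc. Tuba3a, Tuba3b, Tubb4b and Tuba8 sit higher in WT Spc than in the other 3 groups, with Tuba8 at 4.82 to 33.5 CPM there and at most 0.795 CPM elsewhere, while Tuba1a, Tuba1b, Tubb2a, Tubb3 and Tubb5 have their lowest library there.

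As a share of the RNA of all 6 alpha isotypes (per kb), Tuba3a and Tuba3b together made up 92.0% ± 5.13 (SD, n = 3) in WT Spg and 89.1% ± 7.08 (n = 3) in KO Spg. In Spc they made up 99.2% ± 0.618 (n = 4) in WT and 69.0% ± 25.0 (n = 4) in KO, where single libraries ran from 45.5% to 90.6%. Tuba1a and Tuba1b took most of the remainder, with 0.544% ± 0.376 in WT Spc and 30.4% ± 25.0 in KO Spc. Among the 4 beta isotypes Tubb4b made up 83.9% ± 6.53 in WT Spg, 80.5% ± 9.69 in KO Spg, 98.1% ± 1.89 in WT Spc and 73.7% ± 15.1 in KO Spc, and Tubb5 was the next most abundant in each. The summed level of the alpha isotypes over that of the beta isotypes was 1.74 ± 0.405 in WT Spg, 1.58 ± 0.067 in KO Spg and 1.33 ± 0.201 in KO Spc, and 5.35 ± 0.585 in WT Spc. All 10 isotypes together took 0.739% ± 0.111 of the counts of WT Spc, and 0.224% ± 0.065 in KO Spc, 0.359% ± 0.036 in WT Spg and 0.350% ± 0.069 in KO Spg. These shares are descriptions and were not tested.

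**Figure D2:**
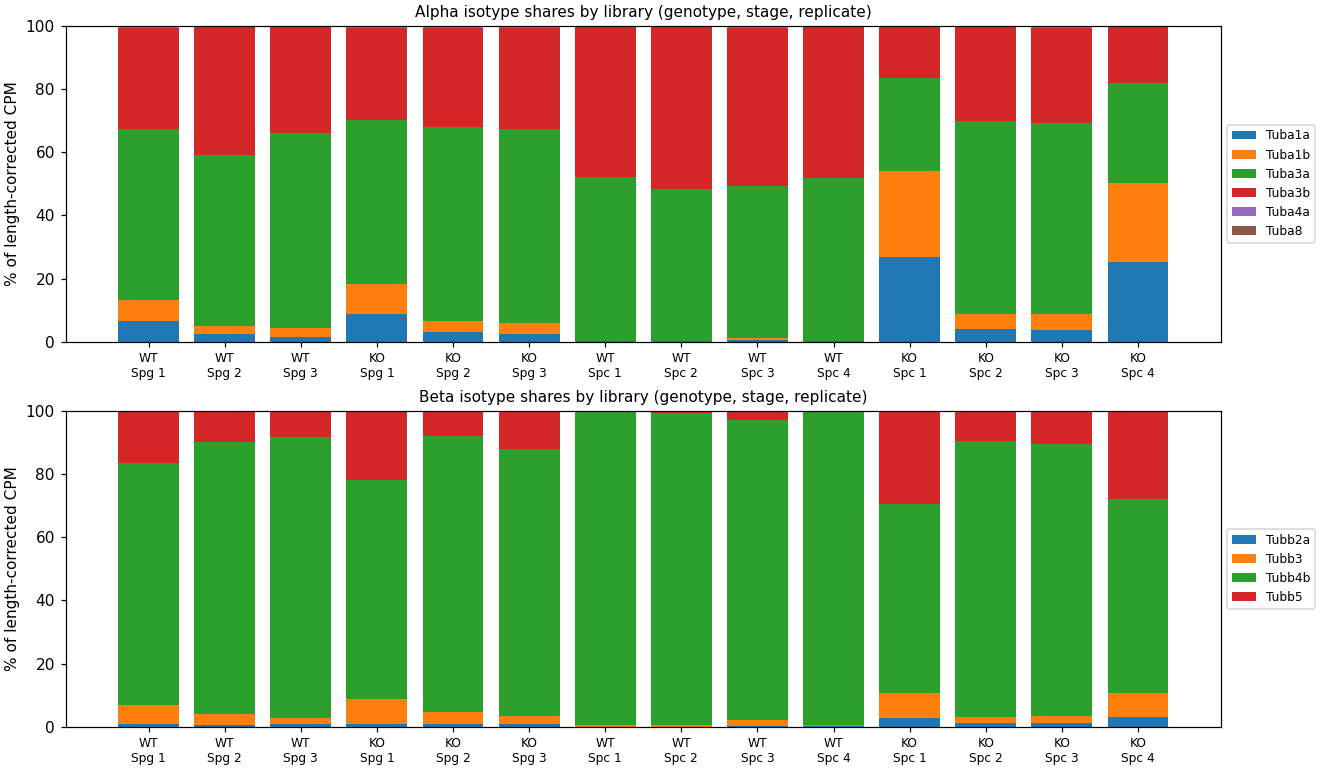
Share of each isotype in the summed alpha (per kb) and beta (per kb) tubulin level, in percent, for each of the 14 libraries. Tuba3a and Tuba3b fill 98.3% to 99.6% of the alpha RNA of WT Spc libraries, and 45.5% to 90.6% in KO Spc, where replicates 1 and 4 have the lowest share.

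Tuba3a, the first of the testis-enriched alpha genes, was measured at 640.3, 809.7 and 1103 CPM in KO Spg and 743, 999 and 863 CPM in WT Spg. In Spc it was at 202, 770.4, 577 and 200.3 CPM in KO and 5173, 4491, 2409 and 4505 CPM in WT. All WT Spc libraries were above all others, KO and WT Spg overlapped, and KO Spc replicates 1 and 4 were the lowest. Tuba3b, its near-identical partner, was at 423, 490.1 and 681 CPM in KO Spg and 514, 884 and 548 CPM in WT Spg. In Spc it was at 130.3, 442, 336 and 131 CPM in KO and 5592, 5656, 2962 and 4957 CPM in WT. The order of libraries resembled that of Tuba3a, and the 2 genes were not in constant ratio. The Tuba3b count was 1.17 ± 0.09 times that of Tuba3a in WT Spc and 0.614 ± 0.042 times in KO Spc, with 0.737 ± 0.131 in WT and 0.628 ± 0.029 in KO Spg.

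Tubb4b, the axonemal beta isotype, was at 786, 994 and 1286 CPM in KO Spg and 949.9, 996 and 1159 CPM in WT Spg. In Spc it was at 485, 960.0, 827 and 458 CPM in KO and 2559.9, 2086, 1408 and 2290.0 CPM in WT. WT Spc were highest here too, with WT replicate 3 nearest to the other groups. Tuba8, a divergent alpha isotype, was nearly absent outside WT Spc. It had 16, 22 and 16 counts in KO Spg (0.274, 0.387 and 0.284 CPM), 46, 23 and 37 counts in WT Spg (0.795, 0.458 and 0.674 CPM) and 6, 19, 12 and 7 counts in KO Spc (0.121, 0.340, 0.229 and 0.143 CPM). The WT Spc libraries had 632, 160, 1399 and 460 counts (19.5, 4.82, 33.5 and 16.0 CPM). The 4 WT Spc libraries were in the same order for Tuba8 as for the summed spermatid markers (425, 58.7, 1216 and 369.6 CPM), whose part in the result was not tested.

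Tuba1a, Tuba1b and Tubb5 had the opposite pattern. Tuba1a was at 128, 48.6 and 51.7 CPM in KO Spg and 107, 50.8 and 26.4 CPM in WT Spg. In Spc it was at 219, 62.6, 43.7 and 190.5 CPM in KO and 17.3, 17.0, 34.4 and 12.2 CPM in WT. Replicate 1 was highest in each Spg group, and replicates 1 and 4 were far above 2 and 3 in KO Spc. Tuba1b, its neighbour on chromosome 15, had 149, 56.9 and 76.5 CPM in KO Spg and 114, 61.4 and 46.0 CPM in WT Spg, and 234, 74.9, 57.4 and 195 CPM in KO Spc against 27.1, 26.8, 33.2 and 22.4 CPM in WT Spc. Tubb5, a beta isotype of dividing and developing cells, had 397, 142 and 290.2 CPM in KO Spg and 327, 183 and 171 CPM in WT Spg, and 383, 169, 159.7 and 330.1 CPM in KO Spc against 17.0, 26.3, 65.3 and 13.7 CPM in WT Spc. For both genes each KO Spc library was above each WT Spc library, and replicates 1 and 4 were again highest among KO Spc.

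Tubb2a, a beta isotype of neurons and many other cells, was at 7.67, 8.64 and 11.6 CPM in KO Spg and 7.40, 6.07 and 7.50 CPM in WT Spg. In Spc it had 17.9, 11.0, 8.94 and 16.8 CPM in KO and 1.30, 0.844, 2.90 and 1.50 CPM in WT. KO and WT did not overlap at either stage. Tubb3 was at 78.6, 37.6 and 34.9 CPM in KO Spg, 68.2, 36.2 and 21.7 CPM in WT Spg, 57.0, 17.7, 17.8 and 52.5 CPM in KO Spc and 8.52, 9.07, 22.7 and 7.24 CPM in WT Spc. Its Spc groups overlapped through WT replicate 3, the highest WT library. Tuba4a, an alpha isotype without an encoded terminal tyrosine, overlapped between KO and WT at both stages, with 19.8, 18.5 and 24.6 CPM in KO Spg, 19.8, 13.0 and 15.0 CPM in WT Spg, 6.83, 16.3, 16.2 and 7.82 CPM in KO Spc and 8.58, 3.01, 19.9 and 8.45 CPM in WT Spc.

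The first comparison asked how the isotypes differ between the 2 stages in WT animals. Tuba3a, Tuba3b, Tubb4b and Tuba8 rose from Spg to Spc, and Tubb5, Tubb2a and Tubb3 fell. A gene was called changed at an adjusted p under 0.01 in edgeR's quasi-likelihood test over all genes and subfamilies of transposable elements (TE). Of the 10 isotypes 7 were called (4 higher and 3 lower), against 51.4% of all features tested (28.9% higher and 22.5% lower). The groups did not overlap for 7 isotypes, against 65.2% of all features. In bulk libraries, fewer cells of a type and less RNA per cell cannot be told apart.

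The largest rise was that of Tuba8, 28.6-fold (log2 fold change 4.84, SE 0.62, edgeR adjusted p = 2.93e-05). Tuba3b rose 7.39-fold (log2 2.88, SE 0.45, edgeR adjusted p = 9.96e-05) and Tuba3a 4.77-fold (log2 2.25, SE 0.45, edgeR adjusted p = 0.000663). The rise of Tubb4b was 2.02-fold (log2 1.01, SE 0.28, edgeR adjusted p = 0.00627) and depended on scaling: with library totals in place of TMM factors it was 0.16 on the log2 scale (edgeR adjusted p = 0.627). In 13 of 14 fits that left out 1 library its adjusted p was above the threshold (0.0101 to 0.0559 by edgeR). On the other side, Tubb5 fell by 2.89 in log2 (SE 0.53, edgeR adjusted p = 0.000337) and Tubb2a fell by 2.09 (SE 0.40, edgeR adjusted p = 0.000429). Tubb3 fell by 1.82 (SE 0.55, edgeR adjusted p = 0.00967), and its call was lost without Spg WT replicate 1 (adjusted p = 0.0446 by edgeR) and without Spc WT replicates 1, 2 or 4 (0.0295, 0.0287 and 0.0301). Tuba1b (log2 -1.43, SE 0.47, edgeR adjusted p = 0.0156) and Tuba1a (log2 -1.60, SE 0.60, edgeR adjusted p = 0.0295) did not pass the threshold, and Tuba4a was at -0.68 (SE 0.49, edgeR adjusted p = 0.241). Library totals moved the median of all genes tested from 0.02 to -0.76 on the log2 scale. They gave 2 isotypes higher and 5 lower, against 18.3% and 34.8% of all features, and the call of Tuba3a was lost (log2 1.39, edgeR adjusted p = 0.0138), while Tuba8 and Tuba3b kept theirs.

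The genotype comparison within Spc asked how the isotypes differ in KO meiotic cells. In KO Spc the alpha isotypes Tuba3a, Tuba3b and Tuba8 and the beta isotype Tubb4b fell, and the alpha isotypes Tuba1a and Tuba1b and the beta isotypes Tubb5 and Tubb2a rose. Thus 8 of 10 isotypes were called, 4 higher and 4 lower, against 57.4% of all features (27.4% higher and 30.1% lower), and 8 did not overlap between groups, against 66.9%. The 4 WT Spc libraries are the same as in the comparison of stages above, so the 2 sets of values are not independent.

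Tuba8 was 85.9-fold lower in KO Spc (log2 -6.43, SE 0.70, edgeR adjusted p = 4.32e-05). Tuba3b was 18.2-fold lower (log2 -4.19, SE 0.48, edgeR adjusted p = 6.09e-05) and Tuba3a 9.39-fold lower (log2 -3.23, SE 0.50, edgeR adjusted p = 0.000329). The fall of Tubb4b was smaller, 3.03-fold (log2 -1.60, SE 0.31, edgeR adjusted p = 0.00125). Of the isotypes that rose, Tubb5 was 8.75-fold higher (log2 3.13, SE 0.52, edgeR adjusted p = 0.00051) and Tubb2a 8.47-fold (log2 3.08, SE 0.47, edgeR adjusted p = 0.000282). Tuba1a was 6.52-fold higher (log2 2.70, SE 0.55, edgeR adjusted p = 0.00156) and Tuba1b 5.21-fold (log2 2.38, SE 0.44, edgeR adjusted p = 0.000845). Tubb3 was at log2 1.64 (SE 0.52, edgeR adjusted p = 0.0162), which did not pass, and Tuba4a at 0.26 (SE 0.55, edgeR adjusted p = 0.679). Library totals moved the median of all genes from 0.11 to 0.79, gave 5 isotypes higher and 3 lower (36.5% and 21.7% of all features), and took the call of Tubb4b (log2 -0.82, edgeR adjusted p = 0.0259). With the closely similar Spc replicates 1 and 4 summed to 1 library, 6 isotypes were called, against 38.2% of all features, and Tuba1a (log2 2.28, edgeR adjusted p = 0.0122) and Tubb4b (log2 -1.38, edgeR adjusted p = 0.0116) were not. The call of Tuba1a was also lost with the replicate number as a block (log2 2.52, edgeR adjusted p = 0.0143).

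**Figure D3:**
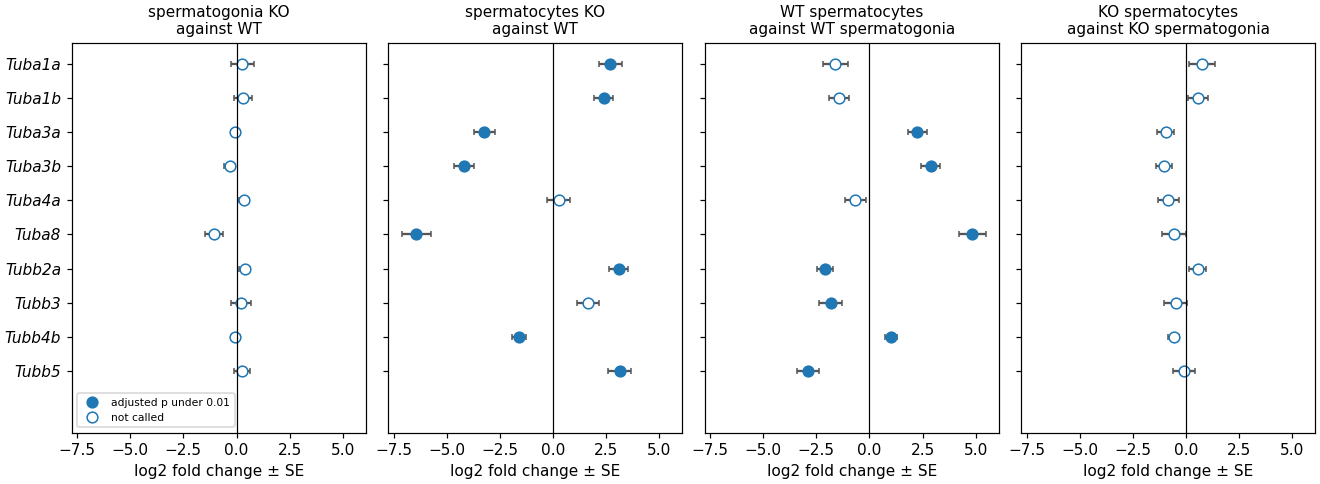
Log2 fold change of each isotype with its standard error (bars) in 4 comparisons, each in a panel: KO over WT in Spg, KO over WT in Spc, WT Spc over WT Spg, and KO Spc over KO Spg. Filled points had an adjusted p under 0.01. In Spg the points lie between -1.06 and 0.38 and none is filled, whereas in Spc they run from -6.43 for Tuba8 to 3.13 for Tubb5.

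The libraries of KO Spc differed in the level of markers of other cells. Sertoli markers summed to 1148, 419, 317 and 1062 CPM in KO Spc replicates 1 to 4 and 178, 199, 559 and 145 CPM in WT. The 6 peritubular and stromal markers summed to 3943, 2362, 367 and 3361 CPM in KO Spc against 31.4 to 45.6 CPM in the other groups. The 8 spermatogonia markers split KO Spc in the opposite way, with 494.5, 1187, 1187 and 486 CPM, and were at 96.2, 189.9, 316 and 90.9 CPM in WT Spc. Leydig markers (57.3 to 356 CPM in KO Spc, at most 30.4 CPM elsewhere) and macrophage markers (23.6 to 127 CPM, at most 6.61 CPM elsewhere) were also higher in all KO Spc, and the macrophage sum was highest in replicate 2. No gene of these 5 lists was at 0 over a whole group. Neural markers, 6 genes, summed to 45.3 to 132 CPM in KO Spc, 10.0 to 50.5 CPM in WT Spc and 24.7 to 43.4 CPM in Spg. Of the lists, 6 of 6 Leydig, 6 of 6 macrophage, 5 of 6 peritubular and stromal and 1 of 8 Sertoli genes were called higher, and 6 of 8 spermatogonia genes were called higher, 7 of 8 pachytene and 8 of 8 spermatid genes lower, against 27.4% of all features higher and 30.1% lower. Of the neural genes 2 of 4 tested were called higher, of the early meiotic genes 2 of 6 higher and 2 lower, and of the erythroid genes 0 of 2. Replicates 1 and 4, which had the highest Sertoli sum in KO Spc, also had the highest Tuba1a, Tuba1b, Tubb5, Tubb3 and Tubb2a and the lowest Tuba3a, Tuba3b, Tubb4b and Tuba4a. In WT Spc the highest Sertoli sum, in replicate 3, went with the highest Tuba1a, Tuba1b, Tubb5, Tubb2a and Tubb3 and the lowest Tuba3a, Tuba3b and Tubb4b. Tuba4a and Tuba8 were highest in that WT library and lowest in replicates 1 and 4 of KO Spc. The part of these cells in the result was not tested. With replicates 2 and 3 of each genotype alone, an alternative chosen after seeing the data, 2 isotypes were called, against 23.2% of all features in that fit. They were Tuba3b (log2 -3.44, edgeR adjusted p = 0.00305) and Tuba8 (log2 -6.03, edgeR adjusted p = 0.00335). Tubb5 was then at a log2 fold change of 1.87 (edgeR adjusted p = 0.0116), Tuba3a at -2.32 (0.0102), Tuba1a at 1.08 (0.0722), Tuba1b at 1.17 (0.023), Tubb2a at 2.43 (0.025), Tubb4b at -0.93 (0.117) and Tubb3 at 0.19 (0.796).

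**Figure D4:**
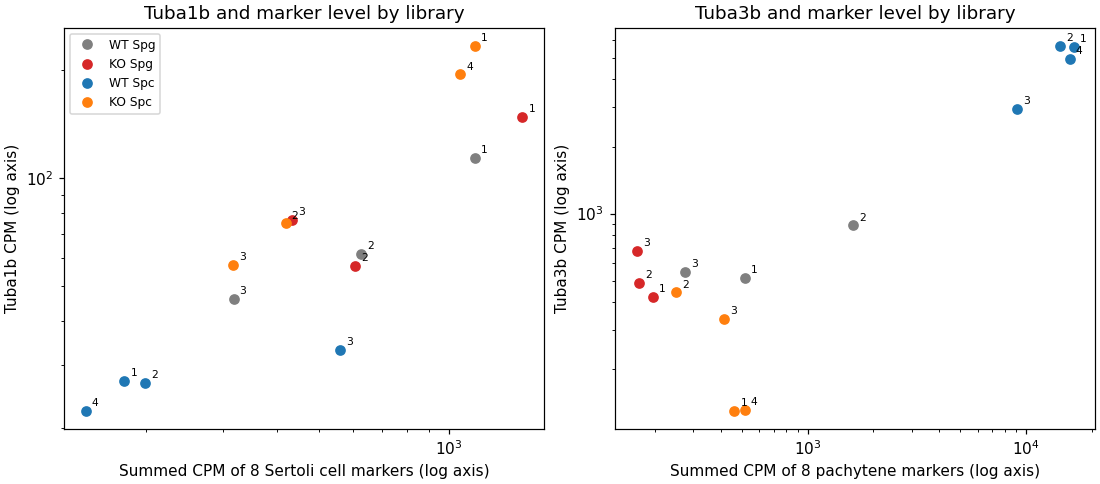
Level of Tuba1b against the summed level of 8 Sertoli markers (left) and of Tuba3b against that of 8 pachytene markers (right), both in CPM on log axes, 1 point per library with its replicate number. KO Spc replicates 1 and 4 have the highest Tuba1b (234 and 195 CPM) at Sertoli sums of 1148 and 1062 CPM, and the WT Spc libraries stand apart at pachytene sums of 9107 to 16438 CPM with Tuba3b at 2962 to 5656 CPM. Within KO Spc the order is inverse, with pachytene sums of 462, 250.2, 414 and 517 CPM in replicates 1 to 4 and Tuba3b at 130.3, 442, 336 and 131 CPM.

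KO Spc were next compared with KO Spg, which asks whether the stage difference of WT animals is seen in KO. None of the 10 isotypes was called by edgeR or by DESeq2, against 2.99% of all features by edgeR and 9.53% by DESeq2, and 2 had an unadjusted p under 0.05 in either test (Tuba3a and Tuba3b), against 24.5% of all genes by edgeR and 28.9% by DESeq2. Tuba3a was at log2 -0.96 (SE 0.42, edgeR adjusted p = 0.175), Tuba3b at -1.03 (SE 0.40, edgeR adjusted p = 0.127) and Tubb4b at -0.58 (SE 0.27, edgeR adjusted p = 0.207), all opposite in sign to the WT stage difference. Tuba1a (0.76), Tuba1b (0.58) and Tubb2a (0.56) had positive and Tuba8 (-0.58), Tuba4a (-0.83), Tubb3 (-0.47) and Tubb5 (-0.08) negative log2 fold changes, none past the threshold. Without KO and WT Spc replicates 1 and 4, Tuba1a and Tuba1b turned to -0.53 and -0.52.

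In Spg none of the 10 isotypes was called between KO and WT by edgeR or DESeq2, against 0.0741% of all features by edgeR and 2.49% by DESeq2, and only Tuba8 had an unadjusted p under 0.05 in either test, against 7.3% of all genes by edgeR and 7.82% by DESeq2. Tuba8 was lower in each KO library than in each WT library (log2 -1.06, SE 0.41, edgeR adjusted p = 0.581) and Tubb2a higher (log2 0.38, SE 0.25, edgeR adjusted p = 0.999), so that 2 of 10 isotypes did not overlap, against 12.1% of all features. The abundant isotypes were close between genotypes, with log2 fold changes of -0.06 (SE 0.22) for Tuba3a and -0.05 for Tubb4b, and -0.33 for Tuba3b. Tuba4a was at 0.36, and Tuba1a, Tuba1b, Tubb3 and Tubb5 were at 0.26, 0.31, 0.21 and 0.24. These 4 isotypes were highest in replicate 1 of both genotypes, the Spg libraries with the highest Sertoli sums. Without KO Spg replicate 1 Tuba1a, Tuba1b, Tubb3 and Tubb5 turned to -0.31, -0.16, -0.23 and -0.09. The pachytene sum was 165 to 196 CPM in KO Spg and 516, 1608 and 275 CPM in WT Spg, and its part in the Tuba8 values was not tested. Early meiotic markers, 6 genes, summed to 644 to 1048 CPM in KO Spg and 1080 to 1334 CPM in WT Spg. In Spc they reached 1282 to 2359 CPM in KO and 2009 to 2962 CPM in WT. The Spg libraries were thus not free of meiotic transcripts.

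Whether the KO over WT difference is itself unequal in Spc and Spg was tested as an interaction term. It was called for 6 of 10 isotypes, against 24.9% of all features: 2 more positive in Spc (10.7% of all features) and 4 more negative (14.3%). The differences were -5.42 for Tuba8 (SE 0.80, edgeR adjusted p = 0.000344), -3.92 for Tuba3b (SE 0.59, edgeR adjusted p = 0.00036) and -3.21 for Tuba3a (SE 0.61, edgeR adjusted p = 0.00138), all in log2. Tubb5 was at 2.81 (SE 0.74, edgeR adjusted p = 0.00851), Tubb2a at 2.65 (SE 0.56, edgeR adjusted p = 0.0026) and Tubb4b at -1.59 (SE 0.39, edgeR adjusted p = 0.00586). Tuba1b (2.01, edgeR adjusted p = 0.0264), Tuba1a (2.37, 0.0371), Tubb3 (1.35, 0.169) and Tuba4a (-0.15, 0.881) did not pass. The calls of Tubb4b and Tubb5 were sensitive to single libraries, with adjusted p above the threshold in 10 and 8 of the 14 fits that left out 1 library (up to 0.0261 and 0.0205 by edgeR). With the replicate number as a block both calls were lost (edgeR adjusted p = 0.0158 and 0.0139) and 4 isotypes were called, against 23.9% of all features. With Spc replicates 1 and 4 summed, Tubb2a (edgeR adjusted p = 0.0123) lost its call beside these, and 3 isotypes remained called, against 14.3% of all features. Library totals moved the median of all genes from 0.20 to 0.90 and gave 3 isotypes more positive and 3 more negative, against 16.9% and 6.88% of all features. With Spg replicate 1 of both genotypes left out, an alternative chosen after seeing the data, 2 isotypes were called (Tuba3b and Tuba8), against 6.9% of all features.

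Of the 10 other tubulin genes 8 were tested in Spc and 5 were called between KO and WT (4 higher and 1 lower), against 57.4% of all features. The count was 3 of 9 tested without WT Spc replicate 1 or 4 (2 higher and 1 lower, against 45.6% and 46.1% of all features). It fell to 2 with Spc replicates 1 and 4 summed (1 higher and 1 lower, against 38.2% of all features) and to 1, which was lower, with replicates 2 and 3 alone (23.2%). Tuba1c, the alpha isotype closest to Tuba1a and Tuba1b, rose 6.40-fold (log2 2.68, SE 0.56, edgeR adjusted p = 0.00187), and Tubb2b, the partner of Tubb2a, rose by 4.00 on the log2 scale (edgeR adjusted p = 0.000307) from levels of at most 0.24 CPM in WT. The widely expressed beta isotype Tubb6 rose by 2.81 (edgeR adjusted p = 0.00368) and the gamma tubulin Tubg2 by 1.90 (0.0039). Tubd1, delta tubulin of the centriole, fell by 3.01 (edgeR adjusted p = 4.82e-05), from 47.5 to 119 CPM in WT Spc to 9.87 to 12.5 CPM in KO Spc. Tubg1, the main gamma tubulin (log2 0.62), Tube1, epsilon tubulin (0.16), and Tubal3 (-2.37) did not pass. From WT Spg to WT Spc, 5 of 10 other tubulins were called, against 51.4% of all features. Tubd1 rose by 2.72 (edgeR adjusted p = 1.6e-05), while Tubg1 (log2 -1.17), Tubg2 (-3.20), Tubb2b (-3.69) and Tubb4a (-3.74) fell. The interaction was called for 2 of 10, Tubb2b (3.69) and Tubd1 (-2.79), against 24.9% of all features. No other tubulin was called in Spg or between KO stages by edgeR, where Tubb6 was nearest (log2 2.79, edgeR adjusted p = 0.0159). In Spg 0 of 8 had an unadjusted p under 0.05, against 7.3% of all genes, and between KO stages 4 of 10 (against 24.5% of all genes), of which DESeq2 called 1, against 9.53% of all features. Tubb1 and Tubb4a did not pass the filter in the genotype comparisons of Spc.

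Enzymes and chaperones that act on tubulin were read from further lists. Of 22 folding genes (CCT chaperonin, prefoldin and tubulin cofactors) 15 fell and 2 rose in KO Spc, with a median log2 fold change of -1.42 against 0.11 over all features, of which 30.1% fell and 27.4% rose. With library totals 11 fell and 3 rose, with a median of -0.66, against 21.7% and 36.5% of all features. Cct6b, the testis form of a CCT subunit, was at 201 to 547 CPM in WT Spc and 2.94 to 3.60 CPM in KO Spc (log2 -6.92, edgeR adjusted p = 2.73e-06), whereas Vbp1, a prefoldin subunit, rose (log2 3.96, edgeR adjusted p = 4.26e-05). Of 26 genes of tubulin modification tested, 21 fell and 4 rose (median -2.19), and with library totals 15 fell and 4 rose (median -1.49). Ttll6, a polyglutamylase, went from 86.0 to 211 CPM in WT to 0.161 to 1.22 CPM in KO (log2 -7.44, edgeR adjusted p = 1.55e-05). Ttl, the ligase that restores the terminal tyrosine, rose from 0.432 to 1.37 CPM in WT to 4.96 to 11.5 CPM in KO (log2 3.15, edgeR adjusted p = 0.000317).

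Of 20 genes of nucleation and microtubule dynamics 10 fell and 4 rose in KO Spc (median -0.45), against 30.1% of all features lower and 27.4% higher. With library totals 6 fell and 8 rose (median 0.25), against 21.7% of all features lower and 36.5% higher. Mzt2, a subunit of gamma tubulin complexes, fell by 4.48 on the log2 scale (edgeR adjusted p = 9.86e-06), and Mapre2, a plus-end binding protein, rose by 2.76 (edgeR adjusted p = 0.000178). Replicates 2 and 3 alone gave 7 folding, 15 modification and 5 nucleation genes lower and 1, 2 and 0 higher, against 16.4% of all features lower and 6.75% higher. From WT Spg to WT Spc, 13 of 22 folding genes rose and 2 fell, 22 of 27 modification genes rose and 4 fell, and 10 of 20 nucleation genes rose and 5 fell, against 28.9% of all features higher and 22.5% lower. With library totals these counts were 8 and 3, 17 and 4, and 5 and 9, against 18.3% higher and 34.8% lower over all features, and the medians moved from 1.05 to 0.20 for folding and from 0.70 to -0.12 for nucleation. In that comparison the largest calls were Cct6b (log2 5.30) and Vbp1 (-2.83) for folding, the polyglycylase gene Ttll10 (6.95) and the deacetylase Hdac6 (-3.27) for modification, and Mzt2 (4.38) and the severing enzyme gene Fign (-3.57) for nucleation. The interaction was called for 11 folding genes lower and 1 higher, 15 and 2 of modification, and 9 and 1 of nucleation, against 14.3% and 10.7% of all features. The called genes furthest from 0 were Cct6b (log2 -4.14) and Vbp1 (3.55), Ttl (2.95) among modification genes, and Mzt2 (-4.16) and Mapre2 (2.75). Ttll2, of the ligase family, had the lowest called value of the 3 lists (-8.88), but its level was at most 0.103 CPM outside WT Spc, so that the size of this value depends on the prior count of the fit.

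In Spg none of these lists had a gene called by edgeR (2 of 22, 7 of 26 and 2 of 20 with an unadjusted p under 0.05, against 7.3% of all genes), while DESeq2 called 1, 3 and 0, against 2.49% of all features. The median log2 fold change of the modification list was -0.32 there, against 0.02 over all features. WT Spg also had the higher pachytene sums, whose part was not tested. Between KO stages the only edgeR call was Agbl3, a carboxypeptidase that shortens glutamate chains (log2 1.44, SE 0.28, edgeR adjusted p = 0.0067). DESeq2 called 2 genes of modification, 2 of nucleation and 0 of folding there, against 9.53% of all features.

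Genes whose pattern resembled that of an isotype were ranked by Pearson correlation of log2 CPM over the 14 libraries, among 24340 genes, as a description. The libraries fall into 4 groups, and many genes differ between these groups. Tuba3a and Tuba3b correlated at 0.991 with each other, and Tuba3a and Tubb4b at 0.986. Tuba3a was most like Haus4 (0.996), a subunit of the spindle's augmin complex, and B4galt2 (0.995), and Tubb4b like Ube2j2 (0.996) and Haus4 (0.993). Tuba3b was most like Dnaaf2 (0.995), an assembly factor of axonemal dynein, and Eif1b (0.993). Tuba8 was nearest to Mmel1 (0.988) and Actl10 (0.983), and Tuba4a to Mex3d (0.968) and Fam220a (0.954).

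Among isotypes of the other pattern, Tuba1a and Tuba1b correlated at 0.985. Tuba1a was most like Gstm2 (0.997) and Gm49450 (0.996), and Tuba1b like Gm49450 (0.994), which shares transcript windows with both, and Ube2l6 (0.989). Tubb5 was most like Nckap5l (0.993) and Smad3 (0.993), Tubb2a like Iqsec2 (0.988), and Tubb3 like Basp1 (0.994) and Gstm7 (0.994).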

How the data were processed

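The authors aligned the reads (2 × 108 bases, stranded polyadenylated RNA libraries) with STAR 2.7.3a to GRCm38 and GENCODE M25 and counted genes and TE subfamilies with TEtranscripts, sharing reads that align to several places. What the authors deposited are unnormalized counts of genes and TE subfamilies. Log2 fold changes and p-values of the authors and their TPM tables of TE copies were not used. 1 Spg library per genotype, excluded by the authors, was not analysed here.

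The counts were fitted with quasi-likelihood tests of edgeR 4.0.16 under R 4.3.3, after filterByExpr and TMM scaling, each stage on its own for KO against WT, and over 14 libraries in 4 groups, on features in both tables, for stages and the interaction. All p-values were two-sided and adjusted by Benjamini-Hochberg over all features tested, and a feature was called under 0.01. Scripts were tested on simulated data. Totals were 40.6 to 53.3 times 1000000 counts per library, and p-values measure the spread between libraries. Same-numbered Spg libraries deviated together (correlations 0.52, 0.17 and 0.18), although KO replicate 2 and WT replicate 3 did so too (0.26). The labels tie no number to a litter. Spg replicate 3 is numbered by the sample titles, while its table columns carry the number 4, so the block for the comparisons of stages joins it to Spc replicate 3 (for the interaction the block was set within each stage). Alternatives used DESeq2 1.42.0 and are given with their effects in the closing section. Lengths and coding sequences came from GENCODE M21, promoters from RefSeq. Correlations used log2 CPM with a prior count of 2. Tables used Python 3.11.15, pandas 2.3.3 and NumPy 2.4.6, and the plots matplotlib 3.10.9.

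All 10 isotypes and all other tubulins are named. Of each further list, the called genes with the largest rise and fall in each comparison are named, and for each isotype the 2 genes with the highest correlation, except 1 gene that is not reported here. The members and lists were chosen with earlier results of these data known.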

Additional observations from a re-analysis of the deposited data

Results flagged for a closer look

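Tubb3 in WT Spc replicate 3 (22.7 CPM) stood apart from the other 3 WT Spc libraries, its gap to the next covering 0.881 of the group's range, above Dixon's critical value for 4 samples. This was the only such library among 20 groups of 4 libraries tested, and chance gives about 1 in 20. That library also had the highest Sertoli and spermatid marker sums of WT Spc (559 and 1216 CPM), whose part was not tested.

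The genotype effect differed between Spc and Spg, by the interaction test, for 6 isotypes. The difference on the log2 scale was -5.42 for Tuba8, -3.92 for Tuba3b, -3.21 for Tuba3a, -1.59 for Tubb4b, 2.65 for Tubb2a and 2.81 for Tubb5. With the replicate number as a block, Tubb4b and Tubb5 lost their calls (edgeR adjusted p = 0.0158 and 0.0139), and with Spc replicates 1 and 4 summed Tubb2a did too (0.0123).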

How the results depend on the processing

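The number of called isotypes stayed within 1.5 times its main value under all alternatives but those chosen after seeing the data in the genotype comparison of Spc (main 8) and the comparison of WT stages (main 7), and stayed at 0 in Spg and between KO stages. Leaving out each library gave 8 to 9 in Spc, 5 to 8 between WT stages and 4 to 7 for the interaction (main 6), while 45.6% to 60.5%, 41.4% to 54.5% and 14.6% to 36.4% of all features were called. DESeq2 called 9, 8 and 6 (67.3%, 58.8% and 39.5% of all features) and an adjusted p under 0.05 gave 9, 9 and 8 (72.6%, 65.1% and 46% of all genes). Summing Spc replicates 1 and 4 gave 6, 5 and 3 (38.2%, 45% and 14.3% of all features), without Tuba1a and Tubb4b in Spc, Tubb3 and Tubb4b between WT stages, and Tubb2a, Tubb4b and Tubb5 for the interaction. Over all features in Spg, DESeq2 called 538 and the replicate block 119, against 16. Of the alternatives chosen after seeing the data, Spg replicate 1 left out gave 2 for the interaction (6.9% of all features), and Spc replicates 2 and 3 alone gave 2 for Spc and 3 for the interaction (23.2% and 8.35%). A replicate block gave 7, 6 and 4 called isotypes in these comparisons (50.9%, 47.2% and 23.9% of all features). Under the block Tuba1a lost its call in Spc (log2 2.52, edgeR adjusted p = 0.0143), Tubb3 lost its call between WT stages (log2 -1.68, 0.0205), and Tubb4b (log2 -1.61, 0.0158) and Tubb5 (log2 3.07, 0.0139) lost theirs for the interaction. In Spc the same-numbered libraries did not all deviate together (correlations 0.08, 0.21, -0.01 and 0.12). In Spg no isotype was called with or without the block.

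Directions that turned belonged to values without a call, and the cause was not tested. In Spg, leaving out 1 library gave ranges across 0 for Tuba1a (-0.31 to 0.91), Tuba1b (-0.16 to 0.75), Tuba3a (-0.29 to 0.12), Tubb3 (-0.23 to 0.74), Tubb4b (-0.25 to 0.13) and Tubb5 (-0.087 to 0.59), and Tubb4b was at 0.047 without Spg replicate 1 of both genotypes. In Spc, Tuba4a ran from -0.063 to 0.84. Between KO stages Tubb5 was at 0.071 with the replicate block, -0.46 to 0.20 without 1 library and 0.20 without Spg replicate 1, and Tuba1a and Tuba1b were at -0.53 and -0.52 with Spc replicates 2 and 3 alone. The interaction of Tuba4a was 0.51 with library totals, -0.46 to 0.41 without 1 library and 0.25 with Spc replicates 2 and 3 alone. Taking the longest transcript as length moved the share of Tuba4a in alpha RNA from 0.594% to 0.769% in KO Spg and from 0.532% to 0.686% in KO Spc, and that of Tubb2a in beta RNA from 0.733% to 0.570% in WT and from 0.950% to 0.741% in KO Spg. Depth limits Tuba8 outside WT Spc, where it had 6 to 46 counts.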
